A study of Nicotiana benthamiana with 12 samples.

Results

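The 150 probes described here gave a higher signal on every salt-stressed array than on any array from plants kept without salt, in wild-type (WT) tobacco and in the CbFAD3-transgenic line L2 alike. They were taken by rule from the 43759 non-control probes of the array. A probe could be taken if it was well above background on all 6 salt arrays, which held for 20816 probes once 1 block of 86 probes near an edge of the array (within columns 1 to 5) and the probes annotated as APS reductase-like, Ycf2, Ycf3, maturase K or chloroplast NAD(P)H dehydrogenase had been left out. The margin of a probe is its lowest value on the 6 salt arrays minus its highest value on the 6 normal arrays, on the log2 scale, and the 150 largest margins were taken. The probes were thus chosen by their values on all 12 arrays, and the salt difference of the 150 is given as a description, with no test.

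The plants were 2-week-old Nicotiana benthamiana seedlings kept at 25 °C under days of 16 h light and nights of 8 h. The WT plants carry no transgene, and L2 is a single line that expresses CbFAD3, a microsomal omega-3 fatty acid desaturase of the cold-adapted crucifer Chorispora bungeana, under the constitutive CaMV 35S promoter. Leaves were taken without salt or 6 h after treatment with 200 mM NaCl. This gives 4 groups (WT normal, L2 normal, WT salt and L2 salt) of 3 arrays each. The study's methods name leaves as the material, whereas a note to its microarray results says the RNA came from seedlings. The leaves of several plants were pooled for each array, 5 according to the methods and 3 according to the treatment labels. The array was designed for Nicotiana tabacum, so a probe can differ in sequence from the transcript of the plant it measured.

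Salt stress acts on leaf cells first through water deficit and later through the build-up of sodium ions. Plants are known to answer with abscisic acid and calcium signalling, with sodium export and storage in the vacuole, with the synthesis of compatible solutes and with enzymes that remove reactive oxygen species, and transcripts of such genes rise within hours. Omega-3 desaturases turn linoleic into linolenic acid and so raise membrane unsaturation. The scanner values name each probe only by the sequence it was designed from, so no member is given a gene name or a role here. Of the 150 probes, 102 carry the accession of a single sequence such as an expressed sequence tag, 41 carry the name of an assembly of such tags, 6 carry only their own probe name and 1 (A_95_P007151, NP918104) carries an identifier of another kind. Of the 61 probes that the study annotated, 10 were left out by the rule and 0 are members. The study listed these 61 as higher in transgenic than in WT plants under salt. Members are 150 of the 20816 probes to choose from, so a count of 0 carries little weight. As no gene names were at hand, the leaf origin of the RNA, the CbFAD3 transcript itself and lists of salt-response genes were not checked.

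Values are the log2 of the background-subtracted Cy3 signal relative to the array's 75th percentile, so a value of 0 lies at the 75th percentile and a difference of 1 is 2-fold. The share of probes well above background was 49.2% to 63.0% per array. Each slide held 4 of the 12 arrays. The 3 WT normal arrays shared slide 1 with L2 normal 1. On slide 2, L2 normal 2 and 3 lay beside WT salt 1 and 2. The 3 L2 salt arrays shared slide 3 with WT salt 3. Salt and normal arrays therefore met only on slide 2, and there salt and line cannot be told apart, since its normal arrays were L2 and its salt arrays WT. Over all tested probes L2 normal 1 deviated with the WT normal arrays (correlation of deviations from the probe mean 0.735 to 0.805) and against L2 normal 2 and 3 (-0.374 and -0.411). A difference between slides, a difference between plants and an exchanged label of the array labelled L2 normal 1 cannot be told apart here, and groups are used as labelled. Results that rest on the L2 normal arrays are given with and without them below.

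The 150 probes lay at all levels. Their mean over the salt arrays ran from -3.47 to 3.65 with a median of 0.07, against -6.07 to 2.99 with a median of -0.93 over the normal arrays. Relative to the mean of slide 1, the median member stood between -0.02 and 0.06 on the 4 arrays of slide 1, at 0.47 and 0.40 on L2 normal 2 and 3, and between 0.92 and 1.14 on the 6 salt arrays. The members were thus low on slide 1, intermediate on the L2 normal arrays of slide 2, and high on all salt arrays. The median of the 20816 probes stood between -0.23 and 0.02 on the 12 arrays.

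**Figure D1:**
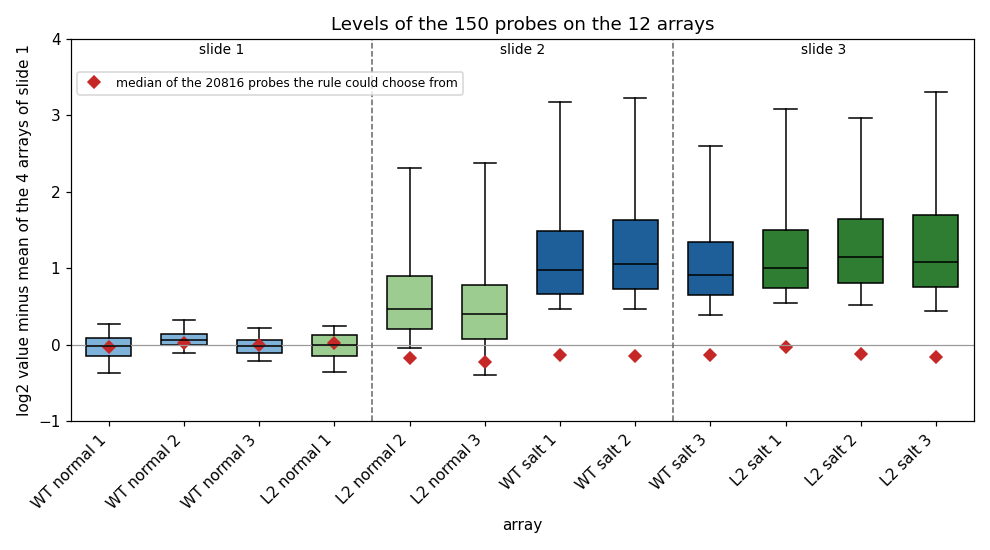
Each box gives the 150 probes on 1 array (box: quartiles, line: median, whiskers: 5th and 95th percentiles) as log2 value minus the mean of the 4 arrays of slide 1; light boxes are normal and dark boxes salt arrays, blue is WT and green is L2. The median is near 0 on slide 1, 0.40 to 0.47 on L2 normal 2 and 3, and 0.92 to 1.14 on the salt arrays, while the red diamonds of all probes to choose from stay between -0.23 and 0.02.

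The median salt minus normal difference over the members was 0.99 in WT (1.99-fold, quartiles 0.67 and 1.51) and 0.84 in L2 (1.79-fold, quartiles 0.64 and 1.08). Over all 26312 tested probes the medians were -0.20 and -0.0021. The L2 median was 1.06 against L2 normal 1 alone and 0.66 against L2 normal 2 and 3. More than 2-fold differences were seen for 73 members in WT, 47 in L2 and 40 in both lines, where 7.46% and 1.85% of the 20816 probes differed as much in WT and in L2. Differences over 4-fold were seen for 25 members in WT and 3 in L2, and 1 of the 25 (A_95_P216942) is only a bound of at least 3.27-fold. Of the 3 in L2, A_95_P011616 was well above background on only 2 of its L2 normal arrays. Its L2 difference thus rests in part on a signal near background and is not shown to exceed 4-fold. The rule used this contrast, so the shares describe the choice. The counts in both lines and over 4-fold were taken over the members alone. Replicates lay close together except in L2 without salt: the median SD of a member (n = 3) was 0.13 in WT normal, 0.14 in WT salt, 0.17 in L2 salt and 0.32 in L2 normal. Over the 20816 probes it was 0.11, 0.19, 0.22 and 0.35 in the same order, so the wide L2 normal spread is not particular to the members.

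Margins ran from 0.61 to 0.17 with a median of 0.25. A margin above 0 was found for 614 of the 20816 probes (2.95%), so the limit of 150 falls inside a continuous range. The last 5 probes inside were A_95_P258271 (EB428312), A_95_P006221 (TA15867_4097), A_95_P031581 (CV016280), A_95_P123912 (DW003780) and A_95_P064100 (BP135956), with margins of 0.17 each. The first 5 outside were A_95_P124042 (DW003889), A_95_P231374 (TA13350_4097) and A_95_P209247 (TA19148_4097), with margins of 0.17, and A_95_P102697 (CV016151) and A_95_P153437 (BP129154), with 0.16. The highest normal array was L2 normal 2 for 82 members and L2 normal 3 for 43, and the lowest salt array was WT salt 3 for 64. L2 normal 2 or 3 was the highest normal array for 83.3% of the members and 37.7% of the 20816 probes, and WT salt 3 was the lowest salt array for 42.7% and 19.6%. At the normal end the margin is therefore set mostly by L2 normal 2 and 3. At the salt end WT salt 3 was the most frequent lowest array, but another salt array was lowest for most members.

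The largest margin belonged to A_95_P151192 (EB681421), with log2 values of -0.61, -0.30 and -0.52 in WT and -0.41, -0.29 and -1.01 in L2 without salt, and 0.52, 0.58 and 0.44 in WT and 0.46, 0.38 and 0.33 in L2 under salt. The normal and salt arrays did not overlap, and L2 normal 2 and 3 differed from each other more than from slide 1. It differed by 0.99 in WT and 0.96 in L2 (SE 0.19), or 1.99-fold and 1.94-fold. The second, A_95_P309023 (FG167278), gave -1.82, -1.61 and -2.04 in WT and -1.52, -1.11 and -1.24 in L2 without salt, and -0.52, -0.04 and -0.38 in WT and -0.51, -0.57 and -0.02 in L2 under salt. Here L2 normal 2 and 3 already stood above the other normal arrays, and the difference was 2.85-fold in WT and 1.89-fold in L2. The third, A_95_P185252 (TA13872_4097), gave -3.14, -3.01 and -2.96 in WT and -2.72, -1.70 and -1.93 in L2 without salt, and -1.01, -0.84 and -1.21 in WT and -1.10, -0.88 and -0.79 in L2 under salt. Its slide 1 arrays were lowest, L2 normal 2 and 3 intermediate and the salt arrays highest, and the difference was 4.05-fold in WT and 2.29-fold in L2.

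The 20 members with the largest margins included such profiles too. A_95_P104977 (CV017248) gave -1.04, -0.94 and -1.0 in WT and -1.08, -0.66 and -0.65 in L2 without salt, and -0.09, -0.03 and -0.17 in WT and 0.03, 0.27 and -0.17 in L2 under salt, a difference of 1.86-fold and 1.79-fold. A_95_P045991 (BP131281) read -1.31, -1.26 and -1.36 in WT and -1.36, -0.93 and -1.28 in L2 without salt, and -0.44, -0.34 and -0.51 in WT and -0.20, -0.35 and -0.44 in L2 under salt. In the first, L2 normal 2 and 3 stood above all 4 arrays of slide 1, by 0.36 between the means, and in the second L2 normal 2 did so. Both lines differed by much the same amount (0.88 and 0.86 for the second). A_95_P276568 (FG642770), A_95_P108222 (CV018725), A_95_P310338 (FG135966) and A_95_P156037 (EG650381) likewise differed by similar amounts in both lines, with differences of 0.87 and 0.96, 0.75 and 0.68, 0.86 and 0.77, and 0.97 and 1.04 in WT and L2. A_95_P267626 (DV160916) had the largest difference within slide 2 of all members, with values of -2.74, -2.95 and -2.79 in WT and -3.11, -2.82 and -1.42 in L2 without salt, and -0.46, -0.24 and -1.03 in WT and -0.91, -0.12 and -0.34 in L2 under salt. L2 normal 3 stood apart from the other 5 normal arrays of this probe, and the difference was 4.75-fold in WT and 3.97-fold in L2. A_95_P183432 (TA13456_4097) differed by 4.74-fold and 3.74-fold in WT and L2, A_95_P098853 (BP534670) by 4.55-fold and 2.62-fold, and A_95_P297143 (FG158759) by 5.21-fold and 2.66-fold. In these 3 probes the L2 normal arrays of slide 2 lay part of the way to the salt arrays. A_95_P183432 and A_95_P297143 were well above background on 10 of the 12 arrays, on 2 of 3 normal arrays in each line, so their folds rest in part on signals near background. The remaining members of the first 20 were A_95_P151507 (EB681722), A_95_P224067 (EB451766), A_95_P011256 (EB442360), A_95_P063565 (BP135814), A_95_P242762, A_95_P212797 (TA19911_4097) and A_95_P220662 (TA21655_4097), whose differences ran from 0.79 to 1.97 in WT and from 0.64 to 1.29 in L2.

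Among the 5 largest fitted salt differences averaged over the lines was that of A_95_P011616 (DV159148), with -7.25, -7.39 and -6.28 in WT and -7.15, -1.88 and -1.86 in L2 without salt, and -1.22, -1.37 and -1.65 in WT and -1.46, -1.43 and -1.14 in L2 under salt. It was very low on all of slide 1 and close to the salt arrays on L2 normal 2 and 3. As it was well above background on 0 of the 3 WT normal arrays, its WT difference is only a bound, at least 13.1-fold, and it has no rank. A_95_P023291 (FG645383) gave -4.42, -4.35 and -4.31 in WT and -4.24, -0.94 and -1.42 in L2 without salt, and -0.21, 0.13 and -0.68 in WT and -0.26, -0.30 and 0.47 in L2 under salt. Of the members measured above background on all 12 arrays it had the largest average difference (3.14), and it differed by 17.2-fold in WT and 4.49-fold in L2, where the L2 normal mean pools 1 array at the WT normal level with 2 far above it. A_95_P225632 (EB442742) read -4.86, -4.56 and -4.57 in WT and -4.52, -2.09 and -1.86 in L2 without salt, and -0.78, -0.66 and -1.66 in WT and -1.55, -0.77 and -0.79 in L2 under salt, a difference of 12.4-fold in WT and 3.45-fold in L2. A_95_P254529 (FG163907) differed by 10.6-fold and 3.4-fold, with -3.55, -3.16 and -3.19 in WT and -3.38, -0.55 and -0.70 in L2 without salt, and -0.06, 0.57 and -0.18 in WT and -0.20, 0.43 and 0.44 in L2 under salt. In both, the step from slide 1 to the L2 normal arrays of slide 2 was larger than the step from these to the salt arrays. A_95_P216942 (EB681877), also the dimmest member on the salt arrays, gave -7.33, -6.44 and -6.84 in WT and -7.16, -4.10 and -4.53 in L2 without salt, and -3.10, -3.29 and -3.84 in WT and -3.14, -3.82 and -3.64 in L2 under salt, which is at least 3.27-fold in WT. Together with A_95_P286883 (FG635003, at least 5.14-fold) and A_95_P042786 (BP130446, at least 6.17-fold), 4 members were well above background on no WT normal array. In each bound, the mean of the WT salt arrays is set against the WT normal arrays, with the probe raised on each array to the lowest value well above background if it lay under that. Of the 150 members, 139 were well above background on all 12 arrays.

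**Figure D2:**
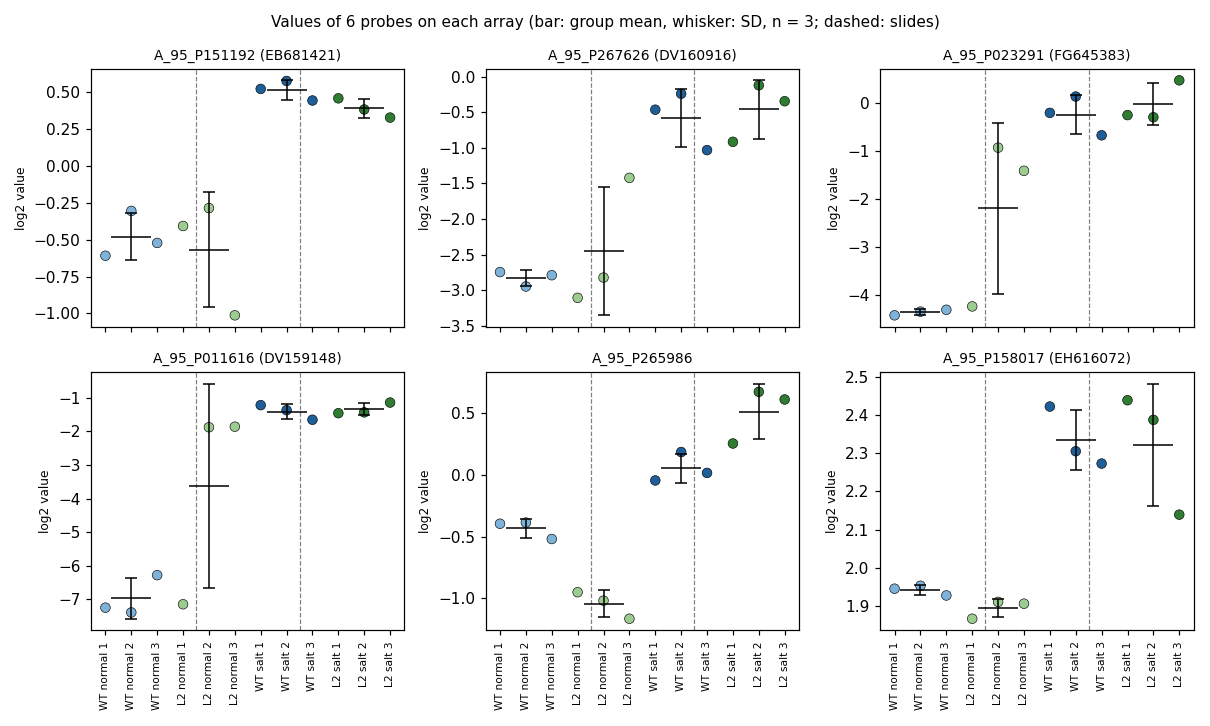
Log2 values of 6 members on the 12 arrays, in the order of the slides (dashed lines), with group means and SD (n = 3); light points are normal and dark points salt arrays, blue is WT and green is L2. A_95_P151192, A_95_P265986 and A_95_P158017 are not raised on L2 normal 2 and 3, whereas A_95_P011616 stands on these 2 arrays near its salt level, A_95_P023291 between its slide 1 and salt levels, and A_95_P267626 is high on L2 normal 3 alone.

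The smallest salt differences among the members were those of A_95_P158017 (EH616072), A_95_P128562 (EB428251), A_95_P130617 (TA17898_4097), A_95_P223872 (FG143525) and A_95_P004446 (TA12140_4097). A_95_P158017 (EH616072) gave 1.95, 1.95 and 1.93 in WT and 1.87, 1.91 and 1.91 in L2 without salt, and 2.42, 2.31 and 2.27 in WT and 2.44, 2.39 and 2.14 in L2 under salt. Its 6 normal arrays lay within a narrow range, its margin of 0.19 was under the median margin of 0.25, and the difference was 1.31-fold in WT and 1.34-fold in L2. A_95_P004446 (TA12140_4097), one of the 5 brightest members under salt, read 2.67, 2.69 and 2.52 in WT and 2.78, 2.76 and 2.71 in L2 without salt, and 3.04, 3.07 and 3.13 in WT and 3.22, 3.22 and 3.32 in L2 under salt. Its difference was 1.37-fold in WT and 1.42-fold in L2. The other bright members differed by 1.54-fold and 1.62-fold (A_95_P105012, CV017261), by 2.57-fold and 1.93-fold (A_95_P130872, EB430982), by 2.27-fold and 1.84-fold (A_95_P114077, CV021432) and by 2.02-fold and 1.52-fold (A_95_P005936, TA11726_4097) in WT and L2. Besides A_95_P216942 (EB681877), the dimmest members under salt were A_95_P250727 (EB681473), A_95_P087148 (BP529723), A_95_P262816 (FG161126) and A_95_P108222 (CV018725). Their salt means lay between -3.17 and -2.95, and their differences between 1.68-fold and 2.6-fold in WT. A_95_P250727 and A_95_P262816 were well above background on 11 of the 12 arrays.

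The salt difference can be split along the slides. From the normal arrays of slide 1 to L2 normal 2 and 3 the median member differed by 0.43 (1.35-fold), where the median of the 20816 probes was -0.20. Over the 139 members well above background on all 12 arrays this step ran from -0.53 to 3.15. For the 4 members that were well above background on no array of slide 1 it is a bound, at least 3.19 for A_95_P011616, 2.12 for A_95_P042786, 1.37 for A_95_P286883 and 0.74 for A_95_P216942. Within slide 2, from L2 normal 2 and 3 to WT salt 1 and 2, the median member differed by 0.62 (1.54-fold, range 0.20 to 1.77), where the median of all was 0.06. Between the salt arrays of slide 2 and slide 3 the median member differed by -0.0042 (range -0.52 to 0.39). Every step uses arrays that chose the members, so these are descriptions. Between the normal arrays, 30 members were more than 2-fold higher on slide 2 (6.90% of the 20816 probes) and 14 more than 4-fold. These counts take the 4 at their measured values, and the bound of A_95_P216942 is under 2-fold and that of A_95_P286883 under 4-fold. Within slide 2, 20 members were more than 2-fold higher under salt (0.865%), and 8 were so at both steps. The counts over 4-fold and at both steps were taken over the members alone. For 97 members both slide 2 normal arrays stood above all 4 arrays of slide 1, which held for 20.6% of the 20816 probes. The step between normal arrays was the larger one for 60 members and for 37.0% of the 20816 probes.

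Members differed in how the normal arrays of both slides compared. In 54 members (36%, against 33.9% of the 20816 probes) the normal means of slides 1 and 2 lay within 0.3 units of each other, and the median differences were 0.60 in WT, 0.66 in L2 and 0.57 within slide 2. For 61 members the step was between 0.3 and 1, with medians of 1.12 in WT, 0.83 in L2 and 0.59 within slide 2. For the 30 members over 1 the medians were 2.54 in WT, 1.40 in L2 and 0.71 within slide 2. The step between the normal slides is itself part of the WT difference, so the WT medians follow from the sorting. The members over 1 were dim on slide 1, with a median level of -3.57 against -0.14 for those within 0.3 units. On L2 normal 2 and 3 these median levels were -1.59 and 0.0069. The sorting used slide 1, so a low level there is in part built in. The step was below -0.3 in 5 members, with medians of 0.69 in WT, 0.92 in L2 and 1.16 within slide 2, among them A_95_P265986 (-0.53), A_95_P309223 (FG645248, -0.47) and A_95_P021291 (EB426312, -0.36). Their WT salt arrays of slide 2 stood above L2 normal 2 and 3 by 1.16, 1.34 and 1.44, and the mean of L2 normal 2 and 3 thus lay farther below the salt level than that of the slide 1 arrays. The part of the slide, of the pooled plants and of handling in these steps was not tested.

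**Figure D3:**
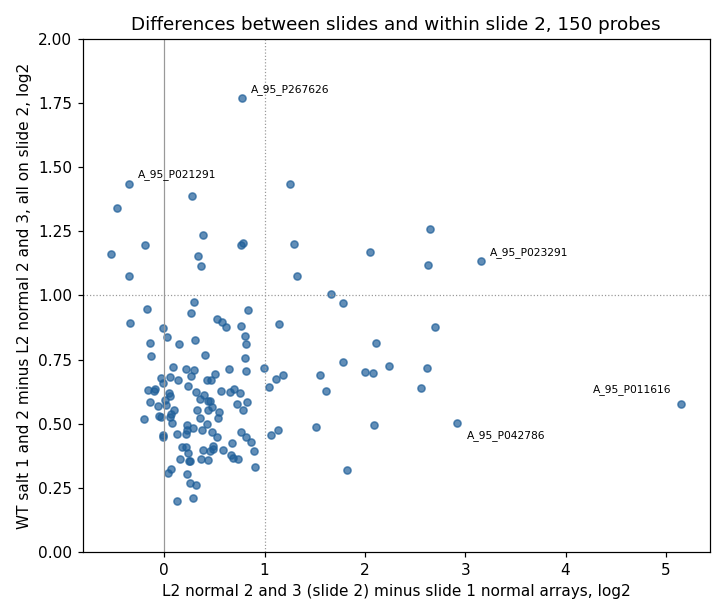
Each point is 1 of the 150 probes: across, the mean of L2 normal 2 and 3 (slide 2) minus the mean of the 4 normal arrays of slide 1; up, the mean of WT salt 1 and 2 minus the mean of L2 normal 2 and 3, all on slide 2, both on the log2 scale with dotted lines at 2-fold. The vertical spread is 0.20 to 1.77 and the horizontal spread reaches 3.15 in the 139 members well above background on all arrays, while the point farthest right (A_95_P011616) is a bound of at least 3.19, with 30 probes right of the vertical dotted line and 20 above the horizontal one.

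The next comparison asks whether the members differ between L2 and WT, which the rule did not fix. The margin takes the lowest salt and the highest normal array of both lines, so it bears on these differences. A line that is far lower without salt or far higher under salt loses no margin by it. Under salt the median L2 minus WT difference was 0.07 (range -0.39 to 0.55), against 0.03 over all tested probes. With a Benjamini-Hochberg adjusted p from limma below 0.05 and more than 2-fold as the call, 0 members and 0 of 26312 probes (0.0%) were called. Without adjustment 2 members (1.33%) had a limma p below 0.05, A_95_P061390 (BP135248, 0.33) and A_95_P265986 (0.46), against 5.83% of all tested probes. The methods' t-test called 0 and gave an unadjusted p below 0.05 for 10 members (6.67%), a count taken over the members alone. The lowest adjusted p of a member from limma was 0.772. The difference was smaller than its own SE in 119 members, a count taken over the members alone. The median SE was 0.20, against 0.24 over all tested probes. On slide 3 alone both lines under salt share a slide. There the mean of the 3 L2 arrays was higher than WT salt 3 for 129 members, a count taken over the members alone. The median member stood 0.18 above it, against 0.05 over all tested probes. The rule bears on this value, since WT salt 3 was the lowest salt array for 42.7% of the members and 19.6% of the 20816 probes. WT salt 3 is 1 array, so the value has no error.

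Without salt the median L2 minus WT difference was 0.27, against -0.15 over all tested probes. In L2, 122 members were higher, a count taken over the members alone. Over the 139 members well above background on all arrays the difference ran from -0.61 to 2.16. The call was reached by 0 members, where 7 of 26312 probes (0.0266%) reached it in either direction. The lowest adjusted p of a member was 0.194 from limma. Without adjustment, 54 members (36%) had a limma p below 0.05, against 20.9% of all tested probes. The methods' t-test called 0 and gave an unadjusted p below 0.05 for 21 members (14%), a count taken over the members alone. The result turned on 1 array. Without L2 normal 1, limma called 30 members higher and 0 lower (20%), against 1651 higher of 26396 tested probes (6.25%). That fit sets L2 normal 2 and 3 against slide 1, which is nearly the step between the normal slides. On slide 1 alone, L2 normal 1 differed from the WT normal mean by a median of -0.01 over the members, with 68 higher and 82 lower. A fit with the slide as a block rests on this same difference, and it called 0 members and 0 of all 26312 probes. Line and slide cannot be told apart for L2 normal 2 and 3, which have no WT normal array on their slide.

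The salt difference was larger in WT than in L2 for 110 members, a count taken over the members alone. The difference between the 2 responses, L2 minus WT, had a median of -0.22, against 0.15 over all tested probes, and ran from -1.94 to 1.07 over the 139 members well above background on all arrays. Of the members 0 were called, as were 0 of all 26312 (0.0%). An unadjusted limma p below 0.05 was found for 17 members (11.3%) against 18% of all tested, and the methods' t-test was not run on this difference. Without L2 normal 1, 27 members were called lower and 1 higher by limma, against 6.62% and 10.2% of all tested probes. Without L2 normal 2 and 3 instead, the L2 normal group is the single array L2 normal 1, and the median was 0.09. With the slide as a block it was 0.19, with 0 members and 0 of all 26312 probes called.

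At one end of this difference stood A_95_P265986, with -0.40, -0.39 and -0.52 in WT and -0.95, -1.02 and -1.17 in L2 without salt, and -0.05, 0.18 and 0.02 in WT and 0.25, 0.67 and 0.61 in L2 under salt. L2 was below WT on all 3 normal arrays, L2 normal 1 of slide 1 included, and above it on all 3 salt arrays. The salt difference was 1.56 in L2 and 0.49 in WT (SE 0.16), and the difference of the responses 1.07 (SE 0.22) had an adjusted p of 0.17 from limma, the lowest of the members. A_95_P021291 (EB426312) followed with -1.98, -2.29 and -2.41 in WT and -2.96, -2.05 and -3.48 in L2 without salt, and -1.70, -0.97 and -1.45 in WT and -0.99, -0.74 and -1.48 in L2 under salt. Its L2 normal 2 array lay with WT, and the difference of 0.91 (SE 0.48) had an adjusted p of 0.323 from limma. A_95_P219052 (EB680561), A_95_P224067 (EB451766) and A_95_P122072 (DW002131) gave 0.58, 0.50 and 0.46. At the other end were A_95_P023291, A_95_P225632 and A_95_P156392 (EB678300), with -1.94, -1.84 and -1.76, and A_95_P011616 and A_95_P216942, for which no size is given because their WT normal arrays were not well above background. The adjusted p-values of these 5 from limma were 0.255 to 0.316. In the first 3, L2 normal 1 lay with WT normal and L2 normal 2 and 3 lay 2.56 to 3.15 above slide 1. The values of A_95_P156392 show this pattern, with -3.49, -3.38 and -3.40 in WT and -3.20, -0.75 and -0.86 in L2 without salt, and -0.20, -0.14 and -0.47 in WT and -0.22, -0.46 and 0.06 in L2 under salt.

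The 150 probes carry 148 names. Assembly TA11726_4097 is measured by 2 members, A_95_P154137 and A_95_P005936, at spots far apart on the array (rows 199 and 133). The first gave 1.99, 2.10 and 1.98 in WT and 2.35, 2.54 and 2.54 in L2 without salt, and 3.01, 3.17 and 2.86 in WT and 2.97, 2.84 and 3.19 in L2 under salt. The second gave 2.22, 2.20 and 2.12 in WT and 2.41, 2.88 and 2.76 in L2 without salt, and 3.19, 3.25 and 3.15 in WT and 3.39, 3.10 and 3.37 in L2 under salt. They differed by 0.99 and 1.02 in WT and by 0.52 and 0.60 in L2, so their differences were similar. The 2 members of TA12934_4097, A_95_P013606 and A_95_P111222, differed by 0.69 and 1.24 in WT and by 0.61 and 0.77 in L2. Here the first had a step of 0.24 between the normal slides and the second a step of 0.91.

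Another 17 probes, not members, share a name with 15 member names, and 16 of them were tested. The rule ranked these 16 by their margins on the same 12 arrays and left them out because their margins were too small. Their salt difference is therefore not independent of the rule, and the calls on these 16 probes are given as a description. Their salt difference was above 0 for 11 in WT and 14 in L2, where 37.5% and 49.8% of all tested probes were above 0. In WT, limma called 4 of the 16 higher and 0 lower, against 6.04% of all tested probes higher, and 8 had an unadjusted limma p below 0.05, against 42.0% of all tested. In L2 it called 0, against 0.0152% higher, with 6 at an unadjusted limma p below 0.05, against 16.7% of all tested, and 0 by the methods' t-test. Without L2 normal 2 and 3 it called 4 higher in L2, against 5.42%. The 4 were A_95_P109182 (TA11726_4097, 13.6-fold, adjusted p 0.0114 from limma), A_95_P177482 (TA11987_4097, 7.06-fold, 0.0114), A_95_P015101 (EB450127, 2.47-fold, 0.0122) and A_95_P192322 (EB678300, 2.44-fold, 0.0114). In all 4 the step between the normal slides was larger than the step within slide 2, and with the slide as a block limma called 0 of the 16 and 0 of all 26312 probes in WT, and 1 of the 16 in L2, against 0.186% of all.

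Probes of one name could read very differently. The third probe of TA11726_4097, A_95_P109182, gave -0.76, -0.48 and -0.55 in WT and -0.25, 3.02 and 2.74 in L2 without salt, and 3.20, 3.44 and 2.87 in WT and 3.31, 3.44 and 3.45 in L2 under salt. It stood 3.39 higher on L2 normal 2 and 3 than on slide 1 and 0.44 higher again on WT salt 1 and 2, where the members A_95_P154137 and A_95_P005936 had steps of 0.43 and 0.58. The 2 other probes of TA11987_4097 gave WT differences of 2.82 (A_95_P177482) and 0.07 (A_95_P010476). The lowest salt difference in WT among the 16 was that of A_95_P013141 (TA14138_4097), -0.83 in WT and -0.0040 in L2, and it was under 2-fold.

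The members were unevenly spread over the array surface. The array was divided into bands of 50 rows and of 5 columns, a division made after the positions were seen. Rows 351 to 400 held 49 of the 150 members (32.7%) and 9.76% of the 20816 probes. The 6 bands of rows 1 to 300 held 2 to 8 members each (1.33% to 5.33%) and 8.62% to 9.71% of the 20816 probes each. Columns 6 to 10 held 26 members (17.3% against 6.08%). In rows 351 to 400 the median of the spots around a probe shifted by 0.04 from normal to salt arrays, whereas in the 6 bands of rows 1 to 300 the shift was -0.11 to -0.08. At the members themselves the local median differed by 0.02 between salt and normal, against -0.04 over the 20816 probes. The highest such difference at a member was 0.15.

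The rule was repeated after subtracting, on each array, this local median within 10 rows and 4 columns of a probe, a setting chosen after seeing the data. It then took 85 of the 150 members again, 19 of the first 20 among them. A margin above 0 was kept by 126 members and was found for 443 of the 20816 probes. The members were chosen by their margin on the same arrays, so this count describes the choice. Of the 49 members in rows 351 to 400, 18 were taken again, and this band held 13.3% of the new 150. Columns 6 to 10 still held 16.0%. The raw signal floor around a spot, the 10th percentile of the median signal within 7 rows and 2 columns, was 0.27 higher on salt than on normal arrays at the members and 0.28 higher over the 20816 probes. It was more than 2-fold higher at 0 members. The part of the array surface in the salt differences was not tested.

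**Figure D4:**
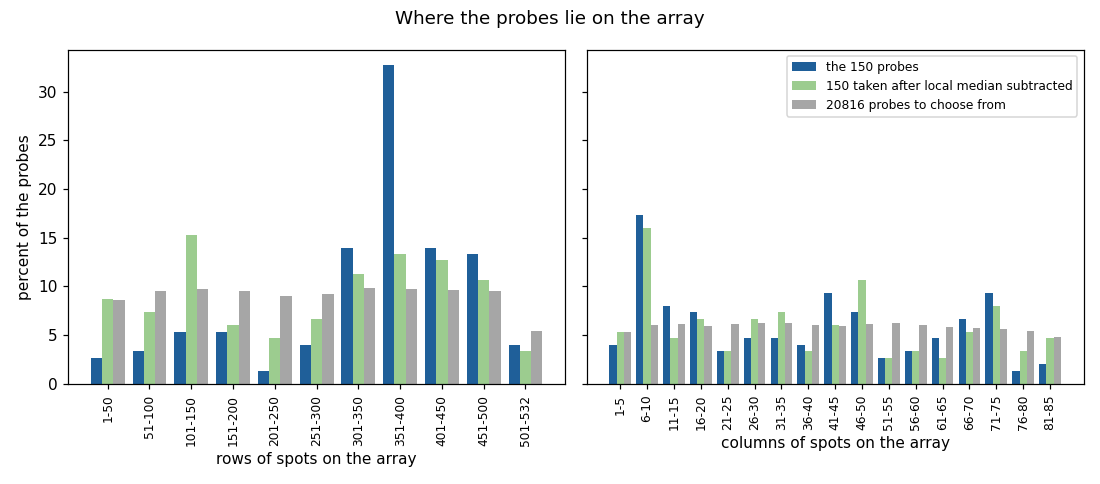
Percent of probes in bands of 50 rows (left, the last one shorter) and 5 columns (right) of spots, for the 150 probes, for the 150 taken after the local median was subtracted, and for the 20816 probes to choose from. Rows 351 to 400 hold 32.7% of the 150, 13.3% after subtraction and 9.76% of all, and columns 6 to 10 hold 17.3%, 16.0% and 6.08%.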

How the data were processed

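RNA of the 12 samples was labelled with Cy3 and hybridized to Agilent 4 x 44 Nicotiana tabacum arrays. The authors extracted spot intensity with Agilent Feature Extraction (version 10.7.3.1 in the submitters' processing notes, 11.5.1.1 in the file headers), which subtracts background and writes a processed signal and flags; these intensity values were deposited without scaling between arrays. The deposited table holds log2 values scaled by the authors. Set against the scanner values, 100% of them differed by a constant within 0.01 on each array, and that constant is its 75th percentile. GeneSpring GX, Student's unpaired test and Benjamini-Hochberg correction are named in the methods.

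The rule was applied to the deposited log2 table. All other values were computed from the processed signals in log2, with the array's own 75th percentile subtracted, without control spots and 32 spots flagged as outliers. Probes were tested if 1 or more of the groups had them well above background on its 3 arrays, and these 26312 probes were fitted with limma 3.58.1 in R 4.3.3 (lmFit, contrasts.fit, eBayes, 4 group means over 12 arrays), and a probe was called at an adjusted p below 0.05 and more than 2-fold. The fit was tested on simulated data with independent noise and no slide effect, so that test does not bear on the slides. Tables and figures were made with Python 3.11.15, numpy 2.4.6, pandas 2.3.3 and matplotlib 3.10.9. The local median was taken over 10 rows and 4 columns either side.

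The members and the rules for naming them were chosen with earlier results of these data known. Named were the 20 members with the largest margins, 5 probes on each side of the limit of 150, the 5 brightest and 5 dimmest under salt, the 5 with the largest and the 5 with the smallest salt difference, the 5 at each end of the difference between the responses, any member called between the lines, and members sharing a name. Other probes named in the text were chosen after their values were seen. Lists by annotation and tissue markers were fixed, but not run, since no gene names were used here. On arrays, their number and the signal over background limit the precision.

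Alternatives were background correction by normexp with an offset of 50 (on the median signal), quantile and median scaling, a 75th percentile taken only over probes well above background throughout, a floor of 5, the deposited table, a block for the replicate number or for the slide, each array left out, the filter on dim probes, only the groups compared, array weights, the methods' t-test, a trend with robust estimation and no 2-fold limit.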

Additional observations from a re-analysis of the deposited data

How the results depend on the processing

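The choice of members fixed the direction of their salt difference, so its sign under other settings is no sign of stability. When the slide entered the fit as a block, 4 members were below 0 in WT, A_95_P042786 (-0.36), A_95_P133797 (-0.29), A_95_P224067 (-0.05) and A_95_P117222 (-0.0090), and 1 in L2, A_95_P123912 (-0.08). The WT median of 0.99 was 0.79 with normexp, 0.63 with the slide as a block and 0.62 within slide 2, and 0.94 to 1.03 with single arrays left out. The L2 median of 0.84 was 1.06 without L2 normal 2 and 3, and 0.66 to 0.94 with single arrays left out. The median L2 minus WT difference without salt (0.27) was 0.15 with normexp, -0.0073 with the slide as a block or without L2 normal 2 and 3, and 0.20 to 0.43 with single arrays left out, the highest without L2 normal 1. Under salt the median (0.07) was 0.012 with the local median, 0.017 with the 75th percentile of the detected probes, 0.18 with the slide as a block, 0.035 without WT salt 3, 0.13 without WT salt 2 and 0.049 to 0.12 with quantile, median and normexp settings. The median difference between the responses (-0.22) was -0.41 with the 75th percentile of the detected probes, -0.37 with the local median, -0.08 with normexp, -0.37 without L2 normal 1, -0.13 without L2 normal 2 and -0.14 without WT salt 2, and it turned to 0.19 with the slide as a block and 0.086 without L2 normal 2 and 3. Array weights, whose estimation stopped before converging and which put little weight on L2 normal 1 (0.124), gave 30 members (20%) called in L2 against WT without salt, against 15.3% of all probes, and 29 (1 higher and 28 lower) for the difference between the responses, where 5378 of 26312 probes (20.4%) were called, in place of 0. With single arrays left out these counts ran from 0 to 30 and from 0 to 28.

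The choice of the members depended more on the setting. The rule took 99 of the 150 again with the 75th percentile of the detected probes, 85 after the local median was subtracted, 30 when group means replaced single arrays and 18 without L2 normal 2 and 3. It took 101 to 150 with the other scaling, background and floor settings, and 46 (without L2 normal 2) to 150 with single arrays left out, 58 without L2 normal 3 and 67 without WT salt 3. Under all the scaling, background, floor and position settings it took 43 members, and under all settings 1, A_95_P254529 (FG163907).

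Over all tested probes, limma called 3429 for salt in WT. The count was 1842 with normexp, 2119 with no filter, 1852 with probes detected on all 12 arrays, 6145 without the 2-fold limit, 0 with the slide as a block, and 502 (without WT normal 2) to 4153 with single arrays left out. For salt in L2 the 31 became 123 (quantile), 84 (array median), 70 (75th percentile of the detected probes), 48 (replicate block), 49 (slide as a block), 1 (no filter), 0 (only the groups compared and the methods' t-test), 1828 (array weights), 53 (trend), 3029 (without L2 normal 2 and 3) and 55 (local median), and 3 to 126 with single arrays left out. For L2 against WT without salt the 7 became 11 (quantile), 14 (array median), 2 (75th percentile of the detected probes), 4 (detected on all 12 arrays), 4037 (array weights) and 0 with normexp, the replicate block, the slide as a block, no filter, only the groups compared, the trend, the methods' t-test, the local median, and without L2 normal 2 and 3. It was 0 to 3857 with single arrays left out, the highest without L2 normal 1. Under salt the 0 became 1 with quantile scaling, the array median, the local median and probes detected on all 12 arrays, 3 with the 75th percentile of the detected probes, 51 with the slide as a block and 520 with array weights, and 0 to 31 with single arrays left out. Same-numbered samples of compared groups had deviations correlating between -0.388 and 0.41. Whether they share more than a number was not tested. The replicate block moved no other count by more than 1.5 times. The cause of these changes was not tested.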
